A study of Mus musculus with 6 samples.

Results

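Nuclei with transcripts of Slc17a7, which encodes the vesicular glutamate transporter VGLUT1, were examined in single-nucleus RNA sequencing of postnatal mouse brains. Of 60724 nuclei that passed the limits on quality, 475 met the rule, or 0.782%. The rule asked for at least 3 UMIs (unique molecular identifiers, each counting 1 captured RNA molecule) of Slc17a7 and at least 10 of the neuronal long noncoding RNA Meg3. It allowed at most 1 UMI of Slc17a6, 3 of Baiap3, Ecel1 and Magel2 together, 2 of Otof and Chst9 together, and 2 of the myelin genes Mog and Mag together. The levels of these genes are therefore given below as a description and are not tested. A nucleus counted as passing quality with at least 300 genes and at most 1% of its UMIs from mitochondrial genes.

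The libraries came from a mouse model of post-hemorrhagic hydrocephalus, in which lysophosphatidic acid (LPA), a signaling lipid of blood, is injected into the right lateral ventricle. C57BL/6 S-56 mice received 5 µl of LPA or of vehicle at postnatal day 7 (P7), and brains without olfactory bulbs and cerebellum were collected at P15. LPA-injected and vehicle-injected mice gave 3 libraries each, and the study treats a library as 1 mouse. The labels give no sex. Nuclei had been sorted as negative for NeuN, the protein of Rbfox3, so neurons in these libraries are those that passed a sort meant to remove neurons. Shares of nuclei below are shares of sorted nuclei and not of the brain.

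VGLUT1 loads glutamate into synaptic vesicles and is the main vesicular transporter of excitatory neurons of the neocortex, hippocampus and other telencephalic regions, whereas Slc17a6, which encodes VGLUT2, prevails in the thalamus, midbrain and brainstem. Excitatory neurons of the cortex are arranged in layers that differ in their targets and transcription factors, and granule cells of the dentate gyrus are the gateway of the hippocampus. In the second postnatal week these cells form synapses and take on their mature firing properties.

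Of 666 nuclei with at least 3 Slc17a7 UMIs, the Meg3 minimum removed 14, the Slc17a6 limit 35, the limit on Baiap3, Ecel1 and Magel2 12, the limit on Otof and Chst9 50, and the limit on Mog and Mag 80. The nuclei lost at this last step had a median of 16277 UMIs against 8653 in the members, and Arpp21, a regulator of neuronal RNA that is abundant in the forebrain, had a UMI in 92.5% of them and in 95.6% of the members. The LPA libraries held 62, 48 and 104 members, and the vehicle libraries 120, 73 and 68. Member nuclei had between 2369 and 60639 UMIs and a median of 3360 genes. No barcode was a member in more than 1 library, although each pair of libraries shared between 20 and 41 barcodes among all nuclei, 442 in sum.

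Slc17a7 itself was thinly counted. Members had a median of 4 Slc17a7 UMIs, with a highest value of 17, and 228 of them (48%) stood at the minimum of 3. Summed per library, Slc17a7 was at 391.4, 391.7 and 383.9 CPM after LPA and 439, 433 and 481 after vehicle. Just outside the threshold lay 526 nuclei with 2 UMIs that met the other limits, of which 90.9% had an Arpp21 UMI and 30.6% a UMI of Gad1 or Gad2, the enzymes that make GABA. Just inside it, the nuclei with 3 UMIs had Arpp21 in 96.1% and Gad1 or Gad2 in 20.6%. Gad1 or Gad2 was found in 20.8% of the nuclei with 4 UMIs, 35.3% of those with 5 and 20.4% of those with 6 or more.

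Known telencephalic genes were present in the members. Arpp21 had a UMI in 95.6% of members, and Camk2a, a kinase of the excitatory postsynapse, in 93.1%. For comparison, 2545 oligodendrocyte nuclei were taken, with at least 3 UMIs of Mog and Mag together and at most 1 of Meg3. They should lack these genes and had a median of 5116 UMIs, and their shares were 27.5% and 7.86%. The limit on Meg3 leaves out oligodendrocyte nuclei with more neuronal RNA. Their shares of neuronal genes, here and below, may therefore understate the background. Because a deeper nucleus shows more genes, each nucleus was also thinned to 2000 UMIs, and Arpp21 was then found in 88% of members against 13.3% of oligodendrocyte nuclei, and Camk2a in 75.6% against 3.11%. Neurod2, a transcription factor of telencephalic excitatory neurons, was seen in 30.1% of members (8.63% when thinned, against 0.323%). Gad1 and Gad2 had UMIs in 17.1% and 11.4% of members, against 4.60% and 5.58% of oligodendrocyte nuclei. When thinned these were 5.47% and 3.16% against 1.496% and 2.55%, and 25 members (5.26%) held at least 3 UMIs of the pair.

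The transcript of the sorting antigen was abundant in these NeuN-negative nuclei. Rbfox3 had at least 1 UMI in 94.1% of members and in 3.38% of oligodendrocyte nuclei (67.2% against 1.21% when thinned). Summed over the members of each library, Rbfox3 stood at 644, 631 and 621 CPM (UMIs of the gene per 1000000 UMIs summed) in the LPA libraries and at 587, 646 and 499 in the vehicle libraries. The groups overlapped, and all 6 libraries lay far above the 7.01 CPM of oligodendrocyte nuclei. The nuclei were sorted on the NeuN protein, and these values are of its RNA.

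The share of Slc17a7 nuclei was not distinguishable between LPA-injected and vehicle-injected mice. They made up 0.727%, 0.468% and 1.14% of nuclei in the 3 LPA libraries, with exact 95% binomial intervals of 0.558 to 0.931, 0.345 to 0.619 and 0.935 to 1.38. In the vehicle libraries the shares were 1.48%, 0.588% and 0.552%, with intervals of 1.23 to 1.77, 0.461 to 0.739 and 0.429 to 0.699. The intervals cover counting error only, and within each group at least 1 library stood outside the interval of another. Means were 0.779% ± 0.341 (SD, n = 3) after LPA and 0.874% ± 0.526 after vehicle, with a two-sided exact permutation p of 0.8. With 3 libraries against 3 this test has 20 assignments and cannot give a p below 0.1.

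As a share of neuronal nuclei, taken as nuclei with at least 10 Meg3 UMIs and at most 2 of Mog and Mag, the members were 2.36%, 1.87% and 3.61% after LPA and 4.98%, 2.10% and 1.67% after vehicle. These means, 2.61% ± 0.899 and 2.92% ± 1.80, also overlapped (exact permutation p = 0.9). The highest share on both denominators was that of vehicle 1. Median UMIs per member were 8734.5, 8245.5 and 9616 after LPA and 8658, 9083 and 6628.5 after vehicle (exact permutation p = 0.5).

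Mitochondrial transcripts did separate the groups. The median share of mitochondrial UMIs per member was 0.0122%, 0.0150% and 0.0242% after LPA and 0.0489%, 0.0576% and 0.0555% after vehicle, without overlap and at the smallest exact permutation p of 0.1. The same order was seen over all nuclei of the libraries, at 0.0102%, 0.0154% and 0.0263% against 0.0631%, 0.0506% and 0.0628%. It is therefore a property of the whole libraries and not of the Slc17a7 nuclei alone. Such transcripts are made in mitochondria and not in the nucleus, and their part in other differences was not tested.

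**Figure D1:**
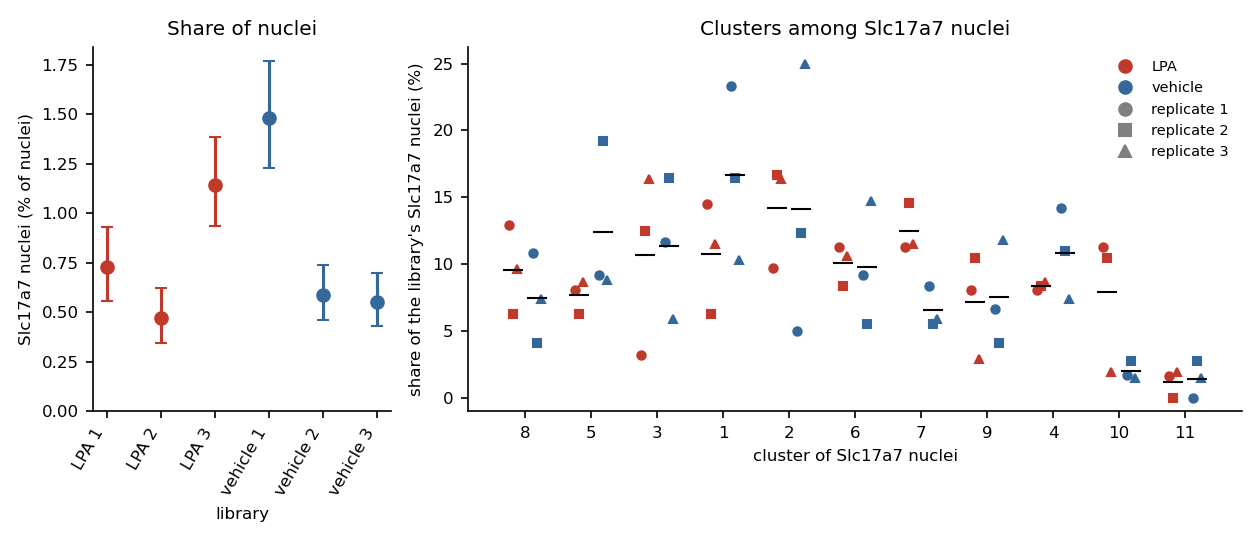
Left, share of Slc17a7 nuclei among all nuclei of each library in percent, with exact 95% binomial intervals; right, share of each of the 11 clusters among the Slc17a7 nuclei of each library in percent, with bars at the group means. Points are single libraries (LPA or vehicle, n = 3 each). The highest share of Slc17a7 nuclei is that of vehicle 1 (1.48%), and in 2 of 11 clusters, cluster 5 and cluster 7, the LPA and vehicle libraries do not overlap.

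Clustering of the 475 members gave 11 groups, which are described by their leading genes without a test, since the same genes made the clusters. Folds are of summed CPM over the other members with 5 CPM added to each. Of these clusters, 4 were named from marker lists, 4 were left unnamed, and 3 were led by genes of non-neuronal cells. All but the smallest cluster had nuclei from all 6 libraries.

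Cluster 1, dentate gyrus granule-like, was the largest with 71 nuclei. Its leading gene was Prox1, the transcription factor that sets the identity of dentate granule cells, at 495 CPM and 16.1-fold over the other members. Tspan18 (8.54-fold), Car12 (8.12-fold), Myo5b (8.05-fold) and Prox1os, which lies beside Prox1 (7.93-fold), followed. The cluster had 5 of 7 dentate markers higher, and its median depth was 6158 UMIs.

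Cluster 3, cortical layer 6-like, held 55 nuclei, all with Hs3st4, a heparan sulfate sulfotransferase of deep-layer neurons, at 3016 CPM. Col5a1 led it at 15.6-fold and Cdh18 stood at 10.1-fold. Foxp2 and Tle4, transcription factors of corticothalamic neurons, were at 587 and 633 CPM. Cluster 5, cortical layer 4-like, had 48 nuclei with Rorb, the nuclear receptor of layer 4, at 542 CPM. It was also higher than the other members for 4 of the 7 layer 2/3 markers, Cux2 (343 CPM), Cux1, Plcxd2 and Pou3f2. Its leading gene was Gm20752 at 107 CPM, and the ciliary genes Dnah12, Cfap299, Foxj1 and Ccdc153 were also higher in it than in the other members, so the nuclei under this name were not uniform. Cluster 8, cortical layer 2/3-like, had 42 nuclei led by Lamp5 at 5.68-fold, with the upper-layer genes Cux2 at 436 CPM and Rasgrf2 at 351 CPM. It was also higher than the other members for 3 of 6 hippocampal CA1 or subiculum markers, Wfs1, Mpped1 and Man1a. Nectin3, on the list of hippocampal CA2 or CA3 markers, was among its leading genes at 4.15-fold. Its marker Otof is a gene of the rule, which removed nuclei with more than 2 UMIs of Otof and Chst9, and nuclei with more of it were not members.

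The unnamed clusters included 3 with telencephalic genes. Cluster 2, with 63 nuclei, was led by Ndst4, an enzyme of heparan sulfate, at 9.17-fold. It was higher than the other members for 5 of 7 layer 5 markers, Fezf2, Bcl11b, Etv1, Deptor and Crym. None of these was among its leading genes, and 3 of 7 amygdala or claustrum markers were higher too. Cluster 6, with 47 nuclei, was led by 1700023F02Rik at 15.7-fold and by Oprk1, the kappa opioid receptor, at 14.3-fold. Mef2c, a transcription factor of excitatory synapse development, was at 1265 CPM. Oprk1 and Sulf1, both among its leading genes, are on the layer 6 list, but that list summed to 362 CPM against 1071 in the other members. Cluster 7 had 44 nuclei, all with Tshz2, a zinc finger transcription factor, at 4205 CPM (14.2-fold), and the highest Arpp21 (3534 CPM) of the 11 clusters.

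Cluster 9 went against the label telencephalic. Its 32 nuclei carried Slc17a7 at 454 CPM, as the others did, but Neurod2 at 3.8 CPM, Mef2c at 101 CPM and Arpp21 at 259 CPM. It was led by the noncoding RNAs D130079A08Rik and D130009I18Rik at 91.0-fold and 80.0-fold, Gm29478 at 57.5-fold, Syt9, a vesicle calcium sensor, at 46.0-fold and the phosphodiesterase Pde11a at 44.3-fold. Tac2, which encodes the neuropeptide neurokinin B, had a UMI in 65.6% of these nuclei (180 CPM), and Pou4f1, a transcription factor of the medial habenula and of sensory ganglia, in 62.5% (131 CPM). Over the other members these genes stood at 0.466 and 0.233 CPM. Tcf7l2, a factor of diencephalic neurons, was at 533 CPM. The cluster is called here by its leading genes and is given no cell type, and it was present in every library, with between 3 and 8 nuclei.

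A further 73 members (15.4%), which held 22.1% of member UMIs, lay in clusters whose leading genes were those of glial, meningeal, immune or vascular cells. Cluster 4 (48 nuclei) was led by Bnc2, Ranbp3l and Slc6a20a, known from meningeal fibroblasts, at 17.9-fold, 16.2-fold and 15.3-fold. It had 12 of 12 astrocyte and 9 of 9 meningeal markers higher than the other members, a median of 12662 UMIs, and Scrublet, a caller of doublets, marked 79.2% of its nuclei. Cluster 10 (19 nuclei) was led by Csf3r, Stab1 and Apbb1ip of myeloid cells, and cluster 11 (6 nuclei) by Mecom, Adgrl4 and Flt1 of endothelium. Of all members Scrublet marked 12.6%, and of all nuclei 17.9%. These clusters made up 21.0%, 18.8% and 12.5% of members in the LPA libraries and 15.8%, 16.4% and 10.3% in the vehicle libraries. The nuclei of these clusters, called mixed below, met the rule and stay in the counts. Some results are also given without them, and the others are over all members only.

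**Figure D2:**
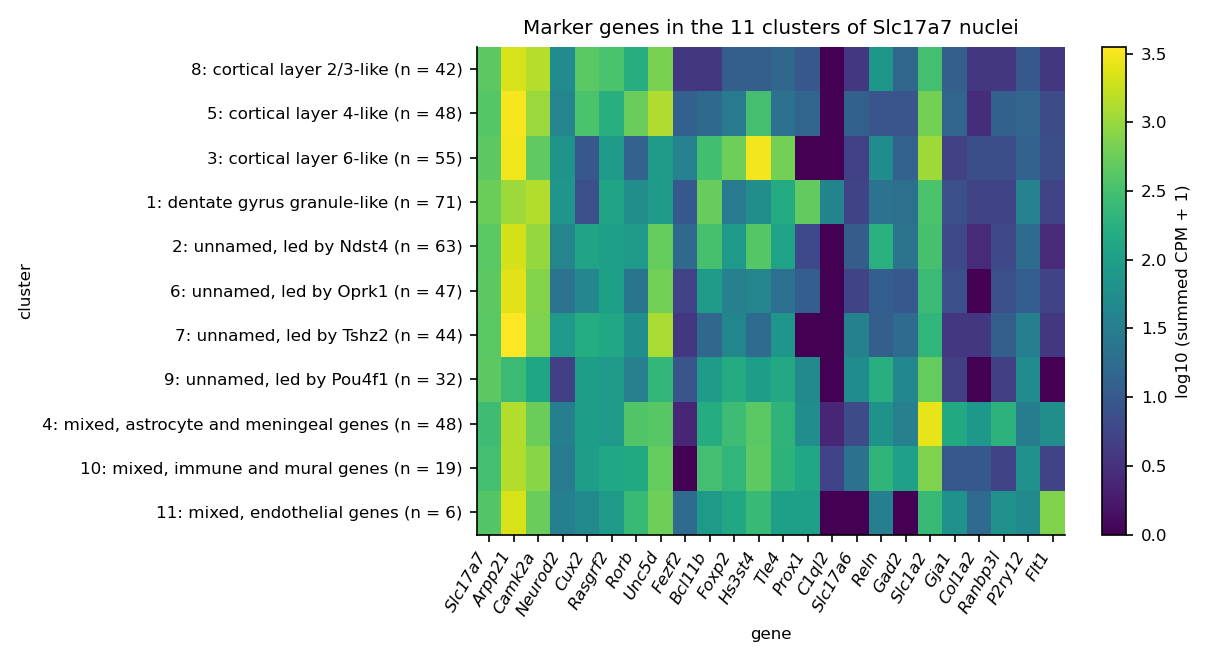
Heat map of summed expression, log10(CPM + 1), of 24 genes (columns) in the 11 clusters of Slc17a7 nuclei (rows). Prox1 is high in cluster 1 (495 CPM), Hs3st4 in cluster 3 (3016 CPM), Slc1a2 in cluster 4 (2611 CPM) and Flt1 in cluster 11 (754 CPM), Neurod2 is low in cluster 9 (3.8 CPM), and Slc17a7 is present in all.

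Cluster 7, the Tshz2 cluster, took a higher share of members after LPA in every library, with 11.3%, 14.6% and 11.5% against 8.33%, 5.48% and 5.88% after vehicle. Cluster 5, layer 4-like, went the other way, with 8.06%, 6.25% and 8.65% after LPA against 9.17%, 19.2% and 8.82%. These were the clusters whose groups did not overlap. Both had the smallest exact permutation p of 0.1 and an adjusted p of 0.55 over the 11 clusters, so neither difference passed the test, which could not have passed with 3 libraries a group. Cluster means were 12.5% ± 1.83 against 6.57% ± 1.54 for cluster 7 and 7.66% ± 1.25 against 12.4% ± 5.88 for cluster 5. They rest on 44 and 48 nuclei.

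The remaining clusters overlapped between groups. The dentate gyrus granule-like cluster made up 10.8% ± 4.19 of members after LPA and 16.7% ± 6.52 after vehicle (exact permutation p = 0.3). Cluster 10, of mixed myeloid and mural genes, had 11.3%, 10.4% and 1.92% after LPA and 1.67%, 2.74% and 1.47% after vehicle (exact permutation p = 0.2), with LPA 3 at the level of the vehicle libraries. Since Tshz2 and Rorb helped to make the clusters, their levels in these 2 clusters are not a separate measure.

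For gene expression, UMIs of the members were summed per library and compared between LPA-injected and vehicle-injected mice with edgeR's quasi-likelihood test. Calls needed an adjusted p (Benjamini-Hochberg) below 0.05 together with a log2 fold-change of 0.25 or more in either direction. Of 8348 genes tested, 3 were called (0.0359%), all lower after LPA, and 0 were called higher. At an unadjusted p under 0.05 there were 410 genes. Member UMIs per library were 613167, 459575 and 1070593 after LPA and 1172652, 684041 and 554825 after vehicle. On simulated counts of this depth, the test recovered 59% of genes changed by 1 on the log2 scale and 97.5% of those changed by 2, with 9 and 8 false calls among the 8353 genes simulated. The 3 genes are known from meningeal and other mesenchymal cells. Each passed the filter on low counts largely through the vehicle libraries, where it was high. Bnc2 had 4, 7 and 11 UMIs after LPA against 91, 25 and 29, and Ranbp3l and Adamts12 were as uneven. That all 3 calls were lower after LPA is therefore not read as a result.

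Bnc2, a zinc finger protein of fibroblasts, stood at 6.52, 15.2 and 10.3 CPM after LPA and at 77.6, 36.5 and 52.3 after vehicle. Every LPA library lay below every vehicle library (log2 fold-change -2.48, SE 0.35, edgeR adjusted p = 0.0181). The gene lies on chromosome 4 (chr4:84275095-84675275, GRCm38, minus strand).

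Ranbp3l, which encodes a RAN-binding protein and is on the list of meningeal markers, stood at 8.15, 15.2 and 5.60 CPM after LPA and 74.2, 65.8 and 27.0 after vehicle, again without overlap (-2.77, SE 0.41, edgeR adjusted p = 0.0181; chr15:8967949-9067335, plus strand). Adamts12, a secreted metalloprotease, rested on 3 UMIs in the LPA libraries, 1 in each, and 60 in the vehicle libraries. Its levels were 1.63, 2.18 and 0.934 CPM after LPA and 17.9, 43.9 and 16.2 after vehicle (fitted log2 fold-change -4.04, SE 0.66, edgeR adjusted p = 0.0432; chr15:11064790-11349231, plus strand). As a ratio of summed rates, vehicle was 17.8 times LPA, with an exact 95% counting interval of 5.80 to 88.6. This interval covers counting error only and not the spread between nuclei or libraries.

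The mixed clusters, which were formed and singled out in part by Bnc2 and Ranbp3l themselves as the leading genes of cluster 4, held most UMIs of these genes. They held 143 of 167 Bnc2 UMIs (85.6%), 142 of 165 Ranbp3l UMIs (86.1%) and 51 of 63 Adamts12 UMIs (81.0%), against 22.1% of all member UMIs and 16.6% of those of Rbfox3. Without the 73 nuclei, edgeR called 0 of 7078 genes (379 at an unadjusted p under 0.05). None of the 3 passed the filter on low counts there, so they were not tested. Bnc2 was then at 4.66, 3.12 and 4.36 CPM after LPA and 3.34, 16.6 and 11.3 after vehicle, and Ranbp3l at 11.7, 15.6 and 2.18 against 4.46, 7.39 and 6.77, both with overlap. Adamts12 had 0 UMIs in the LPA libraries and 12 in the vehicle libraries, at least 3.55-fold lower when the LPA libraries are set to 3 UMIs in sum.

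The 9 markers of the meningeal list, Ranbp3l among them, all had UMIs in members and summed to 53.8, 58.8 and 69.1 CPM after LPA and 408, 307 and 153 after vehicle. The most abundant was Bmp6 at 44.1 CPM, and 81.9% of the list's UMIs lay in the mixed clusters. Without these clusters the sums were 44.3, 37.4 and 23.97 against 44.6, 73.9 and 69.98, which is the same order with the groups nearly touching. The astrocyte list, whose 12 markers also all had UMIs, overlapped, at 1130, 1353 and 1058 CPM after LPA against 1422, 871 and 1107, with 60.04% of its UMIs in mixed clusters and Slc1a2 as its most abundant gene. Without these clusters it was lower in each LPA library, at 382, 527 and 586 CPM against 627, 734 and 670. The oligodendrocyte list, which includes Mog and Mag of the rule, overlapped over all members. Without mixed clusters it was lower in each LPA library too, at 510, 543 and 502 CPM against 612, 664 and 634. The oligodendrocyte precursor, microglia, endothelial and mural lists overlapped there. The part of these cell types in the results was not tested. Of the meningeal list, 3 genes were tested. Ranbp3l, described above, and Bmp6 passed the filter largely through the vehicle libraries. Ranbp3l had 5, 7 and 6 UMIs after LPA against 87, 45 and 15, and Bmp6 5, 11 and 27 against 97, 40 and 21. Calls in this list are therefore not counted.

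The calls also depended on single libraries. Without LPA 1, LPA 2 or vehicle 1, edgeR called 0 genes, without vehicle 2 it called 2, and without LPA 3 or vehicle 3 it called 11. Over the 6 libraries left out in turn the log2 fold-change ran from -2.68 to -2.11 for Bnc2 (edgeR adjusted p from 0.0068 to 0.145) and from -3.13 to -2.40 for Ranbp3l (0.00069 to 0.154). Adamts12 fell below the filter without vehicle 1 or vehicle 2, and had an edgeR adjusted p of 0.117, 0.380 and 0.130 without LPA 1, LPA 2 and LPA 3.

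**Figure D3:**
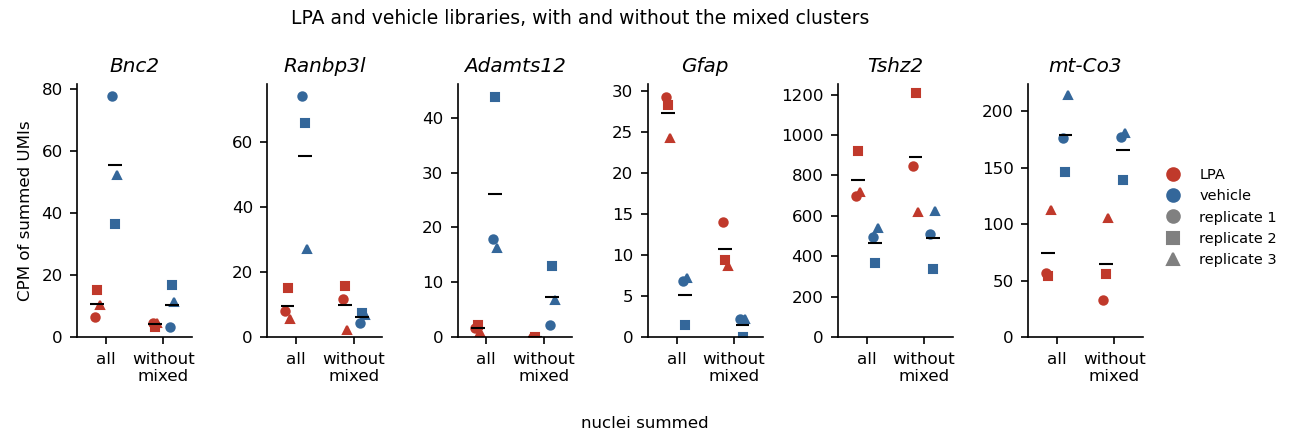
Expression (CPM of UMIs summed per library) of Bnc2, Ranbp3l, Adamts12, Gfap, Tshz2 and mt-Co3 in LPA and vehicle libraries, over all Slc17a7 nuclei and without the mixed clusters; each point is a library. Bnc2 and Ranbp3l do not overlap between groups over all nuclei and do so without the mixed clusters, whereas mt-Co3 stays apart in both.

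The genes nearest to a call among those higher after LPA were Gfap, Gm36251, Tshz2, Gm38505, Inpp4b and Kcnmb2. None passed the test. They were picked by their p in these same libraries, so groups that stay apart without the mixed clusters are not separate support. Gfap, the intermediate filament of astrocytes, was at 29.4, 28.3 and 24.3 CPM after LPA and 6.82, 1.46 and 7.21 after vehicle (2.29, SE 0.42, edgeR adjusted p = 0.0809). Of its 70 UMIs, 71.4% were in mixed clusters, and without these it was at 14.0, 9.35 and 8.72 CPM against 2.23, 0 and 2.26. The LPA libraries were above the vehicle libraries in both counts. Gfap was also higher in each LPA library among striatal projection nuclei, at 17.4, 20.3 and 21.0 CPM against 13.8, 7.61 and 3.02.

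The noncoding RNA Gm36251 had few UMIs in mixed clusters (11.3%). Without them it was at 44.3, 40.5 and 41.4 CPM after LPA and 8.92, 18.5 and 13.5 after vehicle, and over all members its log2 fold-change was 1.52 (edgeR adjusted p = 0.194). Tshz2, which marks cluster 7, was at 696, 923 and 720 CPM after LPA and 495, 368 and 539 after vehicle (0.72, SE 0.16, edgeR adjusted p = 0.194). Its groups overlapped without the mixed clusters, at 846, 1207 and 621 CPM against 510, 336 and 623. The lipid phosphatase Inpp4b (0.67, edgeR adjusted p = 0.262) and the potassium channel subunit Kcnmb2 (0.85, edgeR adjusted p = 0.267) had 23.8% and 18.97% of their UMIs in mixed clusters. Without these, Inpp4b was at 378, 365 and 242 CPM after LPA against 205, 192 and 233. Kcnmb2 was at 81.6, 118 and 78.5 against 41.2, 64.7 and 40.6. Gm38505 (1.58, edgeR adjusted p = 0.194) had 66.7% of its UMIs in mixed clusters. Without them it was at 11.7, 37.4 and 22.9 CPM against 7.80, 7.39 and 4.51. None of these 3 genes overlapped there or over all members, the count from which they were picked.

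Among genes lower after LPA, those nearest to a call were Ptgds, Slc7a11, Sned1, mt-Co3, Adam12 and Bmp6, picked in the same way and with the same limit. Ptgds, prostaglandin D synthase, was at 13.05, 36.99 and 39.2 CPM after LPA and 159, 117 and 54.1 after vehicle (-1.91, edgeR adjusted p = 0.0809), and the cystine transporter Slc7a11 had -1.46 at the same adjusted p. Between 57.5% and 82.7% of the UMIs of Ptgds, Slc7a11, Sned1, Adam12 and Bmp6 lay in mixed clusters. Without these, Ptgds was at 11.7, 24.9 and 4.36 CPM after LPA and 32.3, 48.1 and 45.1 after vehicle (-1.95, edgeR adjusted p = 0.358), and Bmp6 at 9.32, 9.35 and 10.9 against 21.2, 12.9 and 27.1, both without overlap. Slc7a11, Sned1 and Adam12 overlapped there, with -0.16 for Adam12. These genes are known from leptomeninges, glia or connective tissue.

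The mitochondrial gene mt-Co3 had 26.9% of its UMIs in mixed clusters. It was at 57.1, 54.4 and 112 CPM after LPA and 177, 146 and 214 after vehicle (-1.17, edgeR adjusted p = 0.117), and at 32.6, 56.1 and 106 against 177, 139 and 181 without mixed clusters. All 8 mitochondrial transcripts tested had a negative log2 fold-change, with a median of -1.22. Each had an unadjusted p under 0.05 and edgeR called none, the lowest adjusted p being 0.117. DESeq2 called mt-Co2 and mt-Co3 (adjusted p = 0.0348 for mt-Co3), and without LPA 3 edgeR called mt-Nd2, mt-Co1, mt-Co2, mt-Atp6 and mt-Co3 (adjusted p = 0.0044 for mt-Co3). The 11 mitochondrial transcripts of the list, including those too low to test, summed to 243, 259 and 489 CPM after LPA and 768, 629 and 1002 after vehicle. In striatal projection nuclei of the same libraries mt-Co3 was at 39.4, 53.5 and 85.2 CPM against 255, 200 and 253, also without overlap.

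No gene of the synaptic lists was called between LPA and vehicle. As 0.0359% of all genes were called, lists of this size could hold 0 calls whether or not they differed from other genes. The lists held 11 AMPA, kainate and delta receptor genes (median log2 fold-change 0.06), 6 of NMDA receptors (-0.07), 21 of the postsynaptic density (-0.03), 20 of presynaptic release (0.02) and 19 of synaptic adhesion. The summed levels of each list overlapped between groups over all members. Without mixed clusters the NMDA receptor genes summed to 3764, 3177 and 4036 CPM after LPA and 4050, 4429 and 4323 after vehicle, without overlap. The other lists overlapped there too. Camk2a was at 807, 746 and 814 CPM after LPA and 886, 914 and 770 after vehicle, and the groups overlapped. Grin2a, the NMDA receptor subunit that rises as synapses mature, was at 1354, 1090 and 1444 CPM after LPA and 1535, 1966 and 1840 after vehicle (-0.48, SE 0.15, edgeR adjusted p = 0.718). It had no overlap between groups but did not pass the test over all genes. Grin2b, the juvenile subunit, was at 1538, 1486 and 1773 CPM against 1619, 1691 and 1772.

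Lists of excitability, injury and stress genes also held no call. With 0.0359% of all genes called, these lists too could hold 0 calls whether or not they differed from other genes. Of 18 sodium and calcium channel genes, 17 potassium and HCN channel genes and 11 GABA-A receptor genes tested, 0 were called, and likewise 0 of 28 axon guidance genes, 8 genes of axon injury and regeneration, 10 immediate-early genes and 9 glucocorticoid genes. Atf3 and Sprr1a, which neurons switch on after axon damage, had 0 UMIs in all members, which allows up to 0.659 CPM at 3 UMIs. Fkbp5, a glucocorticoid target, was at 57.1, 52.2 and 28.0 CPM after LPA and 76.7, 52.6 and 91.9 after vehicle, with overlap. The 15 glucocorticoid genes of the list, tested or not, summed to 1032, 890 and 937 CPM after LPA and 1184, 1034 and 1080 after vehicle, without overlap, and the sums overlapped without the mixed clusters. Of the 15 telencephalic markers outside the rule, 14 were tested and 0 called, with Mef2c at 661, 899 and 771 CPM after LPA against 849, 890 and 770.

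Genes of LPA signaling were sparse or were not called. LPA acts through the receptors Lpar1 to Lpar6, is made outside cells by autotaxin (Enpp2), and is handled at synapses by the phosphatase-related membrane protein PLPPR4, also called PRG-1. The 6 receptor genes had 106 UMIs among all members, 74 of them of Lpar1, and none reached the filter for testing. They summed to 17.9, 15.2 and 11.2 CPM after LPA and 33.3, 39.5 and 18.02 after vehicle. Mixed clusters held 50% of these UMIs. Without them the sums were 6.99, 15.6 and 6.54 CPM after LPA and 20.1, 27.7 and 13.5 after vehicle, and the groups overlapped. Lpar1 had a UMI in 10.1% of members (3.16% when thinned) against 40.6% of thinned oligodendrocyte nuclei, where it stood at 311 CPM against 16.2 in members.

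Plppr4 had a UMI in 63.6% of members (21.9% when thinned), against 4.79% of oligodendrocyte nuclei (1.90% when thinned). It was at 104, 82.7 and 141 CPM after LPA and 129, 177 and 128 after vehicle (-0.36, SE 0.20, edgeR adjusted p = 0.982), with overlap. The related Plppr1, Plppr2, Plppr3 and Plppr5 had log2 fold-changes between -0.22 and 0, and none was called. Enpp2 was at 50.6, 63.1 and 67.3 CPM after LPA and 124, 113 and 70.3 after vehicle, without overlap (-0.79, SE 0.21, edgeR adjusted p = 0.446). In oligodendrocyte nuclei Enpp2 stood at 1625 CPM. All 9 genes tested of the list of LPA production, breakdown and Plppr proteins had a log2 fold-change below 0, and 0 were called. Over all genes tested the median was -0.01, and 0.0359% were called. The list summed to 820, 753 and 767 CPM after LPA and 988, 870 and 896 after vehicle. Without mixed clusters the sums were 753, 705 and 746 against 877, 872 and 822. The groups overlapped in neither count. The same held for the sums of the meningeal, mitochondrial and chromosome 19 lists. Sums of neurotrophin, hypoxia and glycolysis, circadian clock and nuclear long noncoding RNA genes did not overlap over all members only, while most lists overlapped. These sums were not tested, and the separation is not particular to the LPA list.

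To place the members among other neurons of the same libraries, they were compared with 136 Slc17a6 nuclei, chosen by the mirror of the rule (at least 3 Slc17a6 UMIs and at most 1 of Slc17a7), and with 1182 striatal projection nuclei (at least 3 UMIs of the dopamine receptors Drd1 and Drd2, at most 1 of each transporter). These tests were made in edgeR with the library as a block. Values are means over 6 libraries, with their SD. Slc17a6 nuclei were 29, 24 and 28 in LPA and 18, 22 and 15 in vehicle libraries.

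Slc17a7 nuclei were higher than Slc17a6 nuclei for 662 of 6328 genes (10.5%) and lower for 519 (8.2%). Icam5 (telencephalin), a dendritic adhesion molecule of the telencephalon, was at 93.1 ± 20.3 CPM against 10.8 ± 5.87 (3.17, SE 0.31, edgeR adjusted p = 5.59e-07). Kcnh3, a potassium channel of forebrain neurons, was at 63.2 against 4.52 CPM (3.69). Neurogranin (Nrgn), a calmodulin-binding protein of dendrites, had a log2 fold-change of 2.76 and the kinase Ptk2b one of 2.68. Itpka, an inositol kinase of dendritic spines, had 1 UMI in all Slc17a6 nuclei and 230 in members. The ratio of rates was 59.3, with an exact 95% counting interval of 10.5 to 2353 that leaves out the spread between libraries.

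In the lists, 13 of 20 postsynaptic density genes tested were higher and 1 lower in Slc17a7 nuclei, with a median of 0.70 against -0.03 over all genes. Dlgap2, a scaffold protein, was at 1682 against 314 CPM (2.48), Camk2a at 823 ± 65.2 against 191 ± 52.0 (2.19) and Homer1 at 221 against 79.9 (1.52). The exception was Homer2, at 65.6 against 166 CPM (-1.22). Of 20 presynaptic release genes 11 were higher and 0 lower, among them Sv2b, a vesicle protein (1.46), and Snap25 (0.60). The telencephalic markers Mef2c (2.27), Arpp21 (1.64) and Cck (1.38) were higher.

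Glutamate receptors split by subunit. Grin2a was at 1538 ± 322 against 495 ± 205 CPM (1.75), Grin2b had 1.25 and Grin1 0.76, whereas Grin3a was lower, at 82.8 against 183 CPM (-1.04). Gria3 (1.16) and Gria1 (0.64) were higher and Gria4 (-0.41) and the kainate receptor Grik1 (-2.08) lower. Of all genes tested, 10.5% were higher and 8.2% lower, and of 6 metabotropic receptors 3 were higher (Grm7, Grm5 and Grm3) and 3 lower, among them Grm8 and Grm4. Of 17 potassium and HCN channel genes 8 were higher and 1, Kcnc2, lower (124 against 598 CPM, -2.14). Each value named was called by edgeR.

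Among the genes with the largest negative fold-changes were Ebf2 and Ebf3, transcription factors, at 3.26 and 4.48 CPM against 268 and 308 (-6.07 and -5.80). Reln, the secreted guide of cortical layering made by Cajal-Retzius cells, was at 76.5 ± 39.7 against 1404 ± 765 CPM (-4.08, SE 0.36, edgeR adjusted p = 1.46e-07), with Trp73 (-4.58) and Ndnf (-4.85). Of the thalamic or midbrain markers, Tcf7l2 (-1.71), Lef1 (-2.59) and Ntng1 (-2.48) were lower. Genes near 0 in members could be tested because they were high in Slc17a6 nuclei, so the genes of these lists are given as values and not counted. These values describe the Slc17a6 nuclei as much as the members.

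Rbfox3 was higher in Slc17a7 nuclei than in Slc17a6 nuclei, at 605 ± 56.0 against 239 ± 58.4 CPM (1.43, SE 0.16, edgeR adjusted p = 2.27e-06), and in every library. Against striatal projection nuclei, at 482 ± 53.1 CPM, the difference was small but called (0.31, SE 0.09, edgeR adjusted p = 0.00614). A UMI of Rbfox3 was found in 59.6% of Slc17a6 nuclei and 93.8% of striatal nuclei. Plppr4 was also higher than in Slc17a6 nuclei, at 127 ± 32.1 against 75.9 ± 20.3 CPM (0.83, edgeR adjusted p = 0.0012). It did not pass the test against striatal nuclei, at 149 ± 10.6 CPM (-0.25, SE 0.11, edgeR adjusted p = 0.0812).

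**Figure D4:**
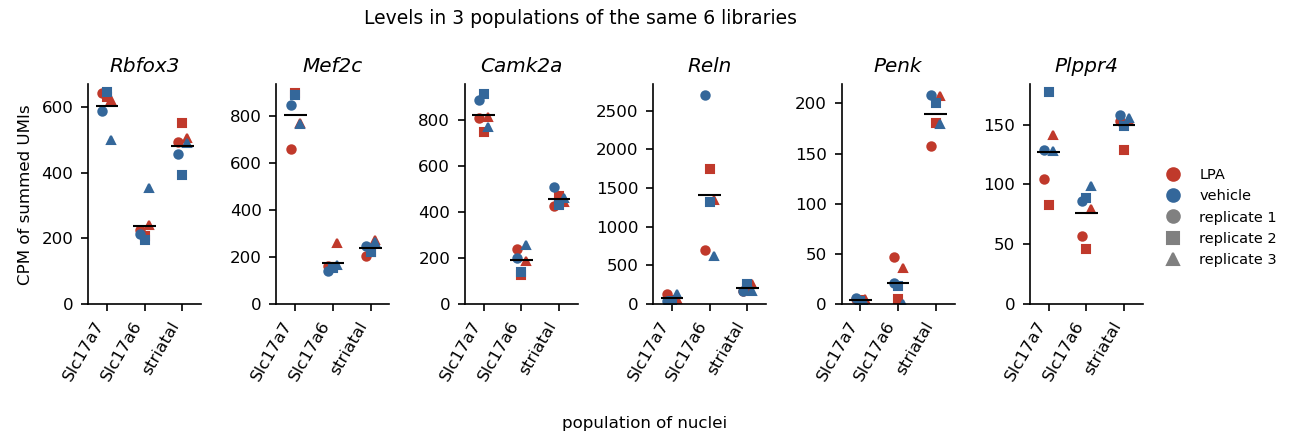
Expression (CPM of UMIs summed per library, each point a library) of Rbfox3, Mef2c, Camk2a, Reln, Penk and Plppr4 in Slc17a7, Slc17a6 and striatal projection nuclei. Mef2c and Camk2a are highest in Slc17a7 nuclei, Reln in Slc17a6 nuclei (mean 1404 CPM) and Penk in striatal nuclei (mean 189 CPM).

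Against striatal projection nuclei, which release GABA, 1795 of 10553 genes were higher in Slc17a7 nuclei (17.0%) and 1574 lower (14.9%). The secreted protein Tafa1 was at 1247 ± 340 against 49.6 ± 13.9 CPM (4.62, SE 0.14, edgeR adjusted p = 2.19e-16), Scube1 had 4.69, and Rtn4r, the Nogo receptor that limits axon growth, 3.83. The netrin-G Ntng2 (3.73) and the potassium channel Kcnj6 (240 against 18.998 CPM, 3.67) were also among the 12 highest. Outside the genes leading the order, Neurod2 had 4.67 and the neurotrophin Bdnf 3.79.

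Striatal genes were low in members. Adora2a, the adenosine receptor of striatopallidal neurons, was at 2.45 against 188 CPM (-6.25), the enkephalin gene Penk at 3.80 against 189 (-5.53) and the retinoic acid receptor Rarb at 61.2 against 1550 (-4.72). Ppp1r1b (DARPP-32) had -4.25. Gad2 was at 22.9 against 261 CPM (-3.49), and Mef2c was higher in members, at 806 against 239 CPM (1.73). Genes near 0 in one population could be tested because they were high in the other, so these are given as values and not counted.

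Beside the 17.0% of all genes that were higher than in striatal nuclei and the 14.9% that were lower, 12 of 20 presynaptic genes were higher and 2 lower, while of 21 postsynaptic density genes 7 were higher and 5 lower (median 0.04). Dlgap2 (0.04), Icam5 (-0.06), Nrgn (0.07), Itpka (-0.35) and Kcnh3 (0.17), which stood apart from Slc17a6 nuclei, did not pass the test here. Grin2a was higher (0.82) and Grin2b did not pass the test (0.00). Of 28 axon guidance genes 15 were higher and 6 lower. Plppr1 was lower, at 193 against 407 CPM (-1.10), and Plppr2 higher (0.78).

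Whether the LPA effect itself differed between populations was tested as an interaction. Against Slc17a6 nuclei edgeR called 0 of 6328 genes (0.0%; 294 at an unadjusted p under 0.05), and DESeq2 called 0 with 56 at an unadjusted p under 0.05. Against striatal projection nuclei, 2 of 10553 genes were called (0.019%), with 535 at an unadjusted p under 0.05. Both are among the 3 genes above: Ranbp3l (-3.30, SE 0.40, edgeR adjusted p = 0.00079) and Adamts12 (-4.16, SE 0.65, edgeR adjusted p = 0.0133). In striatal nuclei Ranbp3l was at 52.2, 67.0 and 21.6 CPM after LPA and 22.5, 50.3 and 13.6 after vehicle, and Adamts12 at 16.2, 29.1 and 14.9 against 16.9, 19.3 and 16.6, with overlap for both. Bnc2 had an interaction of -1.13 (SE 0.49, edgeR adjusted p = 0.951) and did not pass the test. In striatal nuclei Bnc2 was at 43.5, 27.8 and 10.5 CPM after LPA and 51.9, 61.4 and 71.7 after vehicle, without overlap. With mixed clusters left out of the Slc17a7 nuclei, 0 genes were called against striatal nuclei. Against Slc17a6 nuclei 3 were then called, Cdh7, Tmem132d and Unc13c.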

How the data were processed

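Nuclei of 6 libraries (10x Genomics 3′ v3, 10000 nuclei targeted) were analysed from the deposited matrices. The authors made these with Cell Ranger 4.0.0 with a pre-mRNA version of the mm10 reference, which counts reads in introns too. Values are raw counts, whole UMIs of 32285 genes without normalization. All barcodes of a library held 48852970 to 65688644 UMIs. The SCTransform normalization of the paper was not repeated, and its upper limit on UMIs was used only as an alternative (1.5 interquartile ranges).

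Members and gene lists were chosen with earlier results of these data known. Clusters of members came from 2000 variable genes, 20 components, 15 neighbors and leidenalg 0.10.2 at resolution 1 in scanpy 1.11.5 (Python 3.11.15, scipy 1.17.1), and were named only from marker lists. Doublets called by Scrublet (expected rate 0.08) were kept except in an alternative. CPM are UMIs summed per library over the population, per 1000000 of its UMIs.

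edgeR 4.0.16 (R 4.3.3) tested the sums with filterByExpr, TMM and Benjamini-Hochberg adjustment over all genes tested, leaving out genes of the rule. Replicates are libraries, so the p-values measure the spread between 3 libraries a group. The test was checked on simulated counts. Genes named are, between LPA and vehicle, those called and up to 6 not called in each direction of lowest p. Between populations they are taken from the 12 of largest fold-change in each direction with an adjusted p under 0.05, 1 direction in all libraries and at least 50 CPM. Further genes are list members, genes of the rule, Rbfox3, mitochondrial and LPA-related genes, and the leading 5 of each cluster among those in at least 25% of its nuclei. Outside this rule, Slc6a20a, Tac2, Pou4f1 and some list members were chosen after their values were seen. Some genes that the rule names are not reported here. Positions are of GRCm38. Alternatives are given in the closing section. Two-sided exact permutation tests were used for shares. In place of the paper's test of single nuclei, sums per library were tested. Replicates of a group differed beyond sampling noise.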

Additional observations from a re-analysis of the deposited data

Results flagged for a closer look

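For 2 genes the difference between LPA and vehicle itself differed between Slc17a7 nuclei and striatal projection nuclei, by the interaction term in edgeR. Ranbp3l had an interaction of -3.295 on the log2 scale (SE 0.40, edgeR adjusted p = 0.00079). It was lower after LPA in all 3 libraries of Slc17a7 nuclei (mean 9.66 ± 4.99 CPM against 55.7 ± 25.2), and its groups overlapped in striatal nuclei (46.9 ± 23.2 against 28.8 ± 19.2). Adamts12 had -4.164 (SE 0.65, edgeR adjusted p = 0.0133), with 1.58 ± 0.622 against 26.0 ± 15.5 CPM in Slc17a7 nuclei and 20.1 ± 7.84 against 17.6 ± 1.49 in striatal nuclei. Without the mixed clusters neither was called. Ranbp3l then had -0.19, and Adamts12 had 0 UMIs in the LPA libraries, so its fitted value is not given. Ranbp3l also lost its call without Scrublet calls (-1.54, edgeR adjusted p = 0.923) and with an upper limit on UMIs (-1.87, 0.681). Adamts12 also lost its call without LPA 1 (-4.33, edgeR adjusted p = 0.067) or LPA 2 (-4.13, 0.307), at a threshold of 5 UMIs (-4.75, 0.432), and in DESeq2 (-4.18, DESeq2 adjusted p = 0.362). Its fold in these settings was about as large as in the main test. Across the remaining alternatives in which they were tested, the adjusted p ranged from 6.61e-14 to 0.0407 for Ranbp3l and from 2.26e-07 to 0.0495 for Adamts12.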

How the results depend on the processing

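The numbers of genes called between Slc17a7 nuclei and the other populations stayed within 1.5 times under every alternative but a transporter threshold of 5 UMIs, which left 71 genes against Slc17a6 nuclei and 1681 against striatal nuclei. Over libraries left out they ranged from 950 to 1192 and from 2954 to 3203.

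Calls between LPA and vehicle were not stable. There were 0 without mixed clusters, in named clusters alone, without Scrublet calls, with inhibitory and glial UMIs limited, with an upper limit on UMIs, with equal nuclei per library or per cluster and library, and after thinning to 5000 UMIs. In these settings Bnc2, Ranbp3l and Adamts12 fell below the filter and were not tested, except for Bnc2 after thinning (-2.45, edgeR adjusted p = 0.0548) and Ranbp3l with equal nuclei per library (-2.72, 0.269). There were 5 with DESeq2, 6 with a replicate block (the 3 genes, mt-Co2, mt-Atp6 and mt-Co3, the last at 0.0289), 8 with the Xist class of the library as a covariate and 59 (21 higher, 38 lower) without a filter on low counts. At a threshold of 5 UMIs there were also 3, but Ptgds, Bmp6 and mt-Co3, without the Pou4f1 cluster Bnc2, Ranbp3l and mt-Co3, with Adamts12 below the filter, and without the mitochondrial limit Adamts12 lost its call (edgeR adjusted p = 0.0519). Over libraries left out they ranged from 0 to 11. Kcnmb2 turned to -0.32 at a threshold of 5 UMIs.

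For the interaction with Slc17a6 nuclei there were 3 calls without mixed clusters, 3 without the mitochondrial limit and 9 without the filter (0 to 1 over libraries left out). For striatal nuclei there was 1 with DESeq2, 1 without Scrublet calls (Otx2os1), 0 without mixed clusters, 0 with inhibitory and glial UMIs limited and 36 without the filter (1 to 10 over libraries left out). The causes were not tested.

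The LPA-minus-vehicle share ranged from -0.276 to 0.209 percentage points over libraries left out, turning to 0.0612 without LPA 2 and 0.209 without vehicle 1. Among neuronal nuclei it ranged from -0.924 to 0.728 (0.0705 without LPA 2, 0.728 without vehicle 1), and the depth difference from -5.17 UMIs, without vehicle 3, to 1222. Over libraries left out, 2 to 4 clusters did not overlap.

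Same-numbered libraries correlated at 0.138, 0.0527 and -0.0679 in their deviations, so the numbers were not taken as a pairing. With the replicate block, 4 of 11 clusters moved one way in all pairs. Alternatives on mixed clusters, the Pou4f1 cluster, named clusters and Xist were chosen after seeing the data. The median of 8653 UMIs a nucleus and 48 to 120 nuclei a library limit what can be seen for genes of low counts.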

Other observations

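Over all nuclei the libraries fell into a group with Xist at 2328, 2218 and 2533 CPM (LPA 2, LPA 3 and vehicle 2) and one with Xist at 0.555, 0.692 and 0.511 CPM (LPA 1, vehicle 1 and vehicle 3), where genes of the Y chromosome summed to 529, 511 and 562 CPM. The labels give no sex, and the classes are unequal between LPA and vehicle. With the class as a covariate, edgeR called 8 genes between LPA and vehicle in Slc17a7 nuclei, with Gm38505, Nxph1 and Gfap higher and Ptgds, Slc7a11, Bnc2, Ranbp3l and Adamts12 lower.

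Of 8 genes tested on chromosome 19 near Ide, whose product degrades insulin, 0 were called between LPA and vehicle, beside 0.0359% of all genes. Ide was at 81.5, 122 and 72.9 CPM after LPA and 44.3, 49.7 and 64.9 after vehicle (log2 fold-change 0.77, edgeR adjusted p = 0.604), and Btaf1 at 194, 192 and 175 CPM against 130, 149 and 132 (0.43, edgeR adjusted p = 0.75). The groups did not overlap for either gene. The 8 genes had a median of 0.21 against -0.01 over all genes, with 6 values above 0 and 2 below.

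Outside the lists given above, 0 genes were called between LPA and vehicle among 11 genes of cholesterol synthesis (median 0.15), 9 of the circadian clock, 15 neuronal RNA-binding proteins and 6 metabotropic glutamate receptors. As 0.0359% of all genes were called, lists of this size could hold 0 calls in either case. Against striatal nuclei, 6 of 12 clock genes tested were lower and 2 higher in Slc17a7 nuclei (14.9% and 17.0% of all genes), and Egr1, an immediate-early gene, was at 21.9 against 52.0 CPM (-1.20, edgeR adjusted p = 1.3e-05). Stmn2, a microtubule protein of growing axons, was higher at 171 against 37.8 CPM (2.15).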
